A study of Sus scrofa with 20 samples.

Results

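Genes of fatty acid uptake and beta oxidation were followed in longissimus, a muscle that runs along the back, of 20 female pigs. The list named 31 genes, and each was read from the probe set of highest mean among those that carry its symbol on the array. Probe sets were found for 27 of the 31 genes, out of 13664 genes with a probe set in all, and the 27 passed the filter on dim signals. SLC27A1, ECI1, ANGPTL4 and ACOT2 had no probe set under their symbols and were not analysed here. RFI, short for residual feed intake, is feed eaten over and above the amount forecast from growth and body maintenance, and an animal with a low value uses its feed efficiently. The animals were 10 pigs of low RFI and 10 of high RFI. Each animal gave 1 single-colour array of total RNA from muscle, and the labels give no strain, age, litter or treatment. The question of the design is which muscle transcripts differ between efficient and less efficient pigs.

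Muscle takes up fatty acids that lipoprotein lipase frees from circulating fat, binds them in the cytosol and activates them to acyl-CoA. The carnitine shuttle carries the acyl groups into mitochondria, where a spiral of dehydrogenation, hydration, oxidation and thiolysis shortens them. The electrons pass through electron transfer flavoprotein to the respiratory chain, and fatty acid receptors of the PPAR family adjust the expression of many of these genes. Oxidative, slow fibres lean on this route more than fast glycolytic fibres do.

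The values are the log2 signals that the authors deposited, and every difference below is low RFI minus high RFI on that scale, with 10 animals per group. Intervals are 95% confidence intervals from limma, and the number of arrays limits their precision. In bulk muscle, fewer cells of a type and less RNA per cell cannot be told apart. Array means lay between 3.33 and 3.35, and correlations between arrays ranged from 0.916 to 0.978. Markers of fast fibres (11 of 12 listed) and slow fibres (11 of 12 listed) all had means above the mean signal of the background control probe sets (3.64). For 4 arrays that background signal was 3.83 to 3.90, against 3.46 to 3.71 in the other 16. They were low RFI replicates 7, 9 and 10 and high RFI replicate 9, and the main results are also given without them. All 27 genes had group means above the background mean. Single animals fell below it for CD36 and DECR1. The single background control probe sets had means from 1.02 to 7.84, a range in which most of the 27 genes lie. The background mean of 3.64 is therefore not a limit of detection.

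None of the 27 genes passed the test between the groups. Limma called 0 of them at a Benjamini-Hochberg adjusted p under 0.05, as it called 0 of all 33405 probe sets (0.0%), and a rank test called 0 as well. With no adjustment, limma gave a p under 0.05 to 1 of the 27, CPT1A, and to 3.91% of all probe sets (1306), with 1.43% lower in low RFI. The rank test gave such a p to 1 of the 27, PPARA, and to 1155 probe sets in all. The mean was lower in low RFI for 21 of the 27 genes and higher for 6. Over all probe sets 49.2% were lower in low RFI, over the brightest probe set of every gene 50.8%, and over the 5144 genes with a mean of at least 5 the share was 55.8%. The median difference of the 27 genes was -0.12, against -0.0029 over the brightest probe sets of all tested genes. With the background control signal as a covariate 17 of the 27 were lower, and without the 4 arrays of highest background 19 were. For 25 of the 27 genes the interval left out a difference in array signal as large as 2-fold, the exceptions being CD36 and DECR1. This holds for the signal, and how signal scales with transcript in the dimmer genes was not tested.

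**Figure D1:**
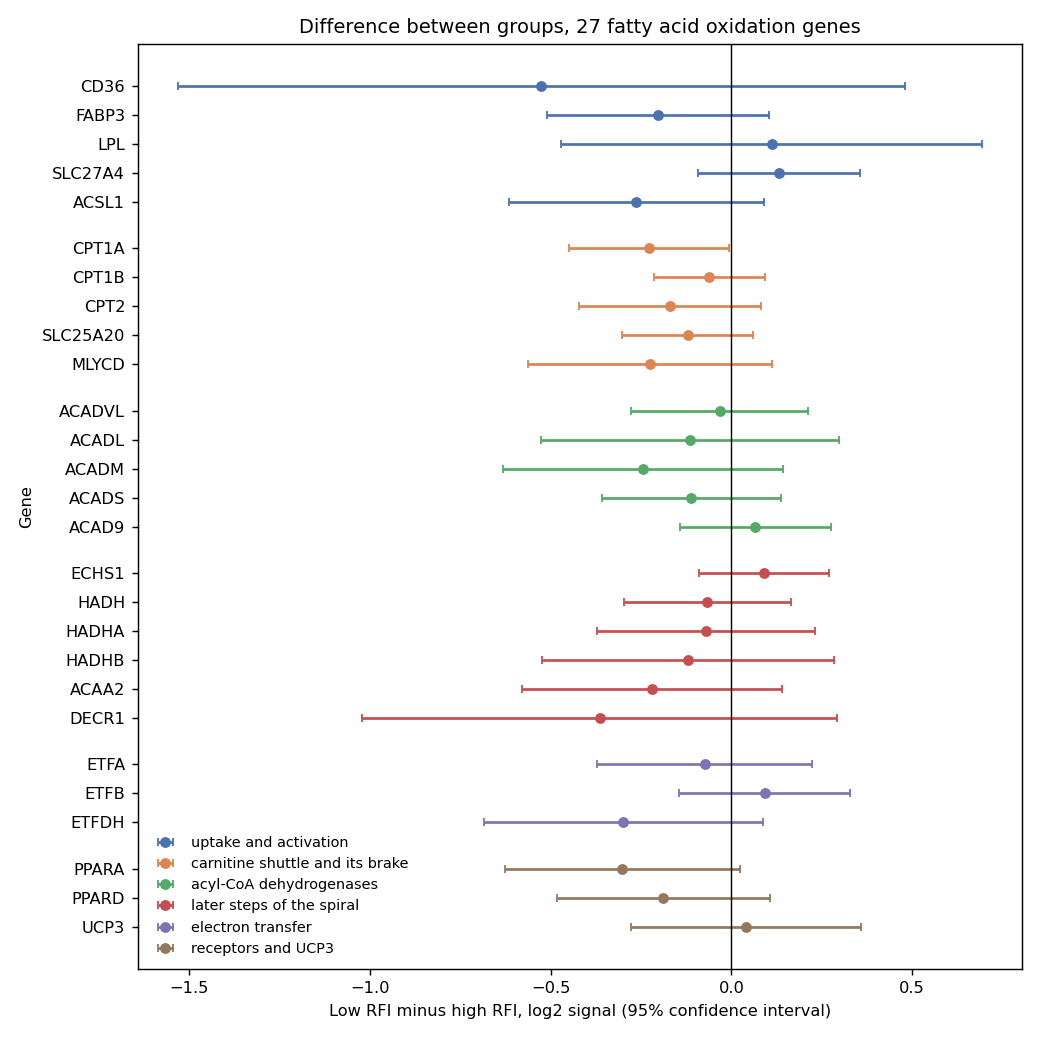
Difference in log2 signal between low and high RFI (x axis) for each of the 27 genes (y axis), coloured by role, with points for the estimate and bars for the limma 95% confidence interval, 10 animals per group. Most points lie left of 0, and the interval crosses 0 for every gene but CPT1A (-0.45 to -0.0072), whose adjusted p was 0.998.

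Among the genes of uptake and activation, 3 of 5 had lower means in low RFI and none passed the test. CD36, the membrane transporter that brings fatty acids across the plasma membrane, ranged from 4.05 over a median of 6.14 to 7.08 in low RFI and from 3.53 over 6.92 to 7.50 in high RFI. The groups overlapped nearly from end to end, and the lowest animal of each was its replicate 9. The means were 5.92 ± 1.09 (SD, n = 10) and 6.45 ± 1.30, a difference of -0.53 ± 0.49 (SE; limma adjusted p = 0.998). It was -0.25 without the 4 arrays of highest background and -0.16 with background as a covariate. Leaving out high RFI replicate 9 moved it to -0.85, with an adjusted p of 0.791 in limma.

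ACSL1, the synthetase that activates long-chain fatty acids, ran from 7.49 over a median of 8.53 to 8.96 in low RFI and from 7.99 over 8.84 to 9.06 in high RFI. In 9 of 10 low RFI animals it lay below the high RFI median, though the groups overlapped, and the difference was -0.26 ± 0.17 (limma adjusted p = 0.998). The share of all genes with such a count of animals was not computed, here or for the genes below. Its second probe set differed by -0.28 ± 0.18 and followed the first closely over the 20 animals (r = 0.973, rho = 0.943). Without the 4 arrays of highest background the ACSL1 difference was -0.15.

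FABP3, the fatty acid binding protein of heart and muscle cytosol, ranged from 9.28 over 9.96 to 10.65 in low RFI and from 9.84 over 10.24 to 10.64 in high RFI. The difference was -0.20 ± 0.15, and the low RFI animals reached further down. Its probe set carries the array's suffix for probes that can also bind other transcripts, so its level is less certain. LPL, which frees fatty acids at the vessel wall, ran from 7.39 over 8.68 to 9.07 in low RFI and from 6.78 over 8.55 to 9.61 in high RFI, a difference of 0.11 ± 0.28. The sign of LPL turned on 1 animal, since without high RFI replicate 9 the difference was -0.072. Of its 4 probe sets, 3 were higher in low RFI. The other stood at -0.17 ± 0.25 and followed the first over the animals (r = 0.890, rho = 0.907). SLC27A4, a fatty acid transport protein with acyl-CoA synthetase activity, had means of 4.53 ± 0.22 (SD, n = 10) and 4.40 ± 0.25 in low and high RFI, which differed by 0.13 ± 0.11.

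In the carnitine shuttle all 5 measured genes had lower means in low RFI, by 0.061 to 0.23, and none passed the test. CPT1A, the carnitine palmitoyltransferase isoform typical of liver, ran from 4.95 over a median of 5.39 to 5.75 in low RFI and from 5.31 over 5.59 to 5.99 in high RFI. In 8 of 10 low RFI animals it lay below the high RFI median. The means were 5.39 ± 0.24 (SD, n = 10) and 5.62 ± 0.22, a difference of -0.23 ± 0.11 with an unadjusted p of 0.0436 and an adjusted p of 0.998 in limma. A second CPT1A probe set differed by -0.28 ± 0.13, and the 2 correlated over the animals at r = 0.502 (rho = 0.562). The CPT1A difference was as large without the 4 arrays of highest background (-0.23) and with the background covariate (-0.26).

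CPT1B, the muscle isoform of the same enzyme, varied least of the 27 genes, with an SD of 0.13 over the 20 animals. It lay between 6.44 and 6.84 in low RFI and between 6.47 and 6.92 in high RFI, and the groups differed by -0.061 ± 0.075. Its other 2 probe sets differed by 0.0021 and 0.065 and followed the first only loosely (r = 0.368 and 0.325), so the value belongs to the brightest. CPT2, which hands the acyl group back to coenzyme A inside the mitochondrion, ran from 4.47 over 4.87 to 5.30 in low RFI and from 4.68 over 5.11 to 5.43 in high RFI, a difference of -0.17 ± 0.12.

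SLC25A20, the carnitine-acylcarnitine exchanger of the inner membrane, lay between 5.85 and 6.19 in low RFI with a median of 5.99, and between 5.78 and 6.50 in high RFI with a median of 6.10. In 9 of 10 low RFI animals it was below the high RFI median. It was below the low RFI median in 4 of 10 high RFI animals. The high RFI animals spread more widely (SD 0.22 against 0.089), and the difference was -0.12 ± 0.088. MLYCD, the decarboxylase that removes malonyl-CoA and so lifts the brake on the shuttle, ran from 3.84 over 4.37 to 5.07 in low RFI and from 3.65 over 4.79 to 5.11 in high RFI. Again 9 of 10 low RFI animals were below the high RFI median, while 2 of 10 high RFI animals were below the low RFI median. The MLYCD difference was -0.23 ± 0.16 (-0.30 without the 4 arrays of highest background).

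**Figure D2:**
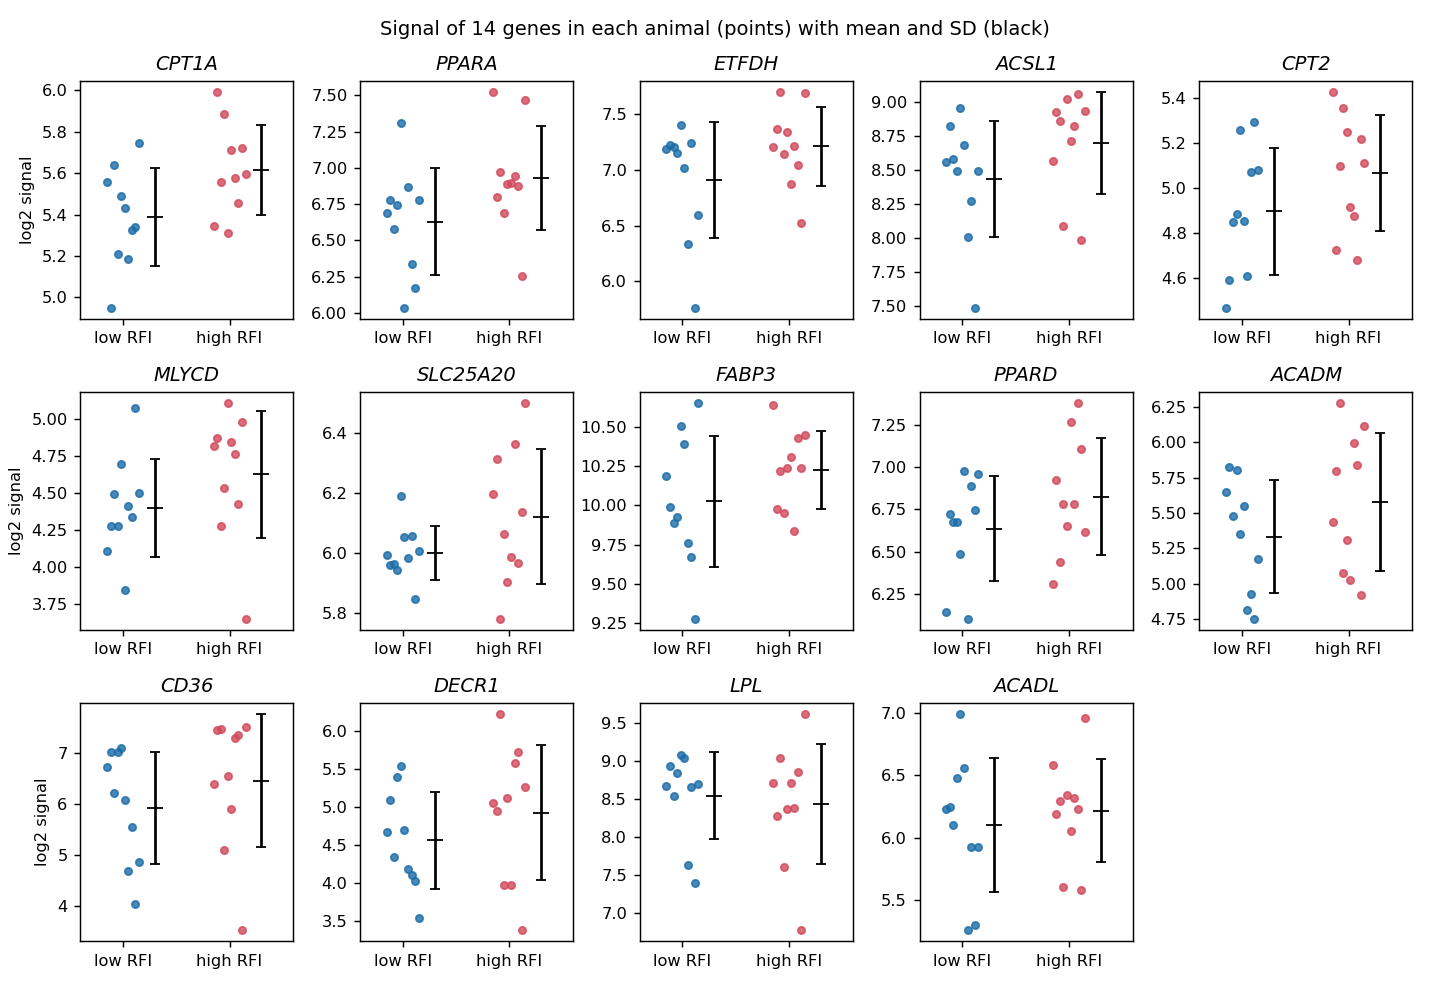
Log2 signal (y axis) of the 14 genes with the smallest p or the largest spread, by RFI group (x axis); each point is 1 animal, and the black mark and bar give the group's mean and SD (n = 10). The groups overlap in every panel, and CD36, LPL and DECR1 show the longest spread within a group.

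The acyl-CoA dehydrogenases open each turn of the spiral and differ in the chain length they prefer. The mean was lower in low RFI for 4 of 5, with none past the test. ACADM, the medium-chain enzyme, ranged from 4.75 over 5.42 to 5.83 in low RFI and from 4.92 over 5.62 to 6.28 in high RFI, a difference of -0.25 ± 0.19 (-0.14 without the 4 arrays of highest background). ACADL, the long-chain enzyme, ran from 5.26 over 6.17 to 6.99 in low RFI and from 5.58 over 6.26 to 6.96 in high RFI. Its difference of -0.12 ± 0.20 changed sign without those 4 arrays, to 0.074. ACADS, the short-chain enzyme, differed by -0.11 ± 0.12 and lay below the high RFI median in 9 of 10 low RFI animals. In 4 of 10 high RFI animals ACADS lay below the low RFI median, so the groups overlapped. ACADVL, the very-long-chain enzyme of the inner membrane, differed by -0.033 ± 0.12, while a dimmer probe set stood at 0.15 ± 0.11. ACAD9, a relative better known for its part in assembling respiratory complex I, differed by 0.067 ± 0.10, a sign that turned without the 4 arrays.

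In the later steps of the spiral, 5 of 6 genes had lower means in low RFI and again none passed the test. DECR1, the dienoyl-CoA reductase needed for unsaturated fatty acids, ran from 3.54 over 4.51 to 5.55 in low RFI and from 3.38 over 5.09 to 6.23 in high RFI. The difference was -0.36 ± 0.32, with 7 of 10 low RFI animals below the high RFI median, and it was -0.54 without high RFI replicate 9 and -0.15 with the background covariate. ACAA2, the mitochondrial ketoacyl-CoA thiolase, had means of 6.18 ± 0.46 (SD, n = 10) and 6.40 ± 0.35, a difference of -0.22 ± 0.17. Without the 4 arrays of highest background this was -0.090.

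HADHA and HADHB, the subunits of the mitochondrial trifunctional protein, differed by -0.071 ± 0.15 and -0.12 ± 0.19. HADHB ran from 6.27 to 7.93 in low RFI and from 6.24 to 7.84 in high RFI, so that the ranges of the groups nearly coincided. HADH, the hydroxyacyl-CoA dehydrogenase for shorter chains, differed by -0.067 ± 0.11. Its second probe set was the more variable one (SD 0.80 against 0.24) and differed by 0.23 ± 0.33. The 2 HADH probe sets did not vary together (r = -0.337, rho = -0.403), so they do not measure the same quantity across animals. ECHS1, the enoyl-CoA hydratase, had means of 7.87 ± 0.10 (SD, n = 10) and 7.78 ± 0.21 in low and high RFI, which differed by 0.090 ± 0.086. Its medians ran the other way, at 7.84 and 7.86, and 7 of 10 low RFI animals lay below the high RFI median.

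Of the electron transfer genes, ETFDH, the oxidoreductase that passes electrons on to ubiquinone, showed the largest of the 3 differences. It ranged from 5.76 over 7.17 to 7.40 in low RFI and from 6.52 over 7.21 to 7.70 in high RFI. The medians were close, and the difference of -0.30 ± 0.19 came with 3 low RFI animals well below the rest, all 3 among the arrays of highest background. Without the 4 arrays the ETFDH difference was -0.083. ETFA and ETFB, the subunits of electron transfer flavoprotein, differed by -0.074 ± 0.14 and 0.092 ± 0.11, and ETFA turned to 0.025 without those arrays.

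PPARA, a nuclear receptor for fatty acids that turns on oxidative genes, ran from 6.03 over a median of 6.72 to 7.31 in low RFI and from 6.26 over 6.89 to 7.53 in high RFI. In 9 of 10 low RFI animals it lay below the high RFI median, and in 2 of 10 high RFI animals below the low RFI median. The means were 6.63 ± 0.37 (SD, n = 10) and 6.93 ± 0.36, a difference of -0.30 ± 0.16 with p = 0.0669 and an adjusted p of 0.998 in limma. It was -0.37 without the 4 arrays of highest background and -0.26 with the background covariate. A dimmer PPARA probe set stood at 0.063 ± 0.19 and correlated with the first at r = 0.603 (rho = 0.579), so the difference belongs to the brightest probe set.

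PPARD, the related receptor that is prominent in muscle, ranged from 6.10 over 6.70 to 6.98 in low RFI and from 6.31 over 6.78 to 7.38 in high RFI. Its difference was -0.19 ± 0.14, while its other probe set stood at 0.077 ± 0.18. UCP3, an inner membrane carrier of muscle whose expression rises with fatty acid supply, lay between 7.23 and 8.05 in low RFI and between 6.66 and 8.14 in high RFI. The UCP3 difference of 0.039 ± 0.15 changed sign when any of 3 single animals was left out, reaching -0.058 without high RFI replicate 3.

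The genes differed in how widely they varied between animals. For 15 of the 27 genes the lowest animal was on one of the 4 arrays of highest background. CD36 in high RFI replicate 9, and DECR1 in that animal and in low RFI replicate 10, read below the background of their own array, so no fold over these values is given. In the 16 other arrays, the highest animal had 5.27 times the CD36 signal of the lowest, 4.79 times the DECR1 signal and 4.03 times the LPL signal. The LPL ratio over all 20 was 7.12, with high RFI replicate 9 as the lowest animal. Over the 16 arrays the ratio was 2.60 for ACADL, 1.88 for HADHB and 1.77 for ETFDH, where all 20 gave 3.31, 3.22 and 3.83. For CPT1B it was 1.29, the smallest of the 27. The median SD of the 27 genes was 0.33 over the 20 animals and 0.27 over the 16, against 0.27 and 0.24 for all genes with a mean of at least 5. Low RFI replicate 5 and high RFI replicate 10 each gave the highest value of 5 genes. Low RFI replicate 9 gave the lowest value of 6 genes, high RFI replicate 9 of 5 and low RFI replicate 7 of 4. Averaged over the 27 genes, the signal ran from 6.38 over a median of 6.74 to 7.07 in low RFI and from 6.45 over 6.90 to 7.09 in high RFI.

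**Figure D3:**
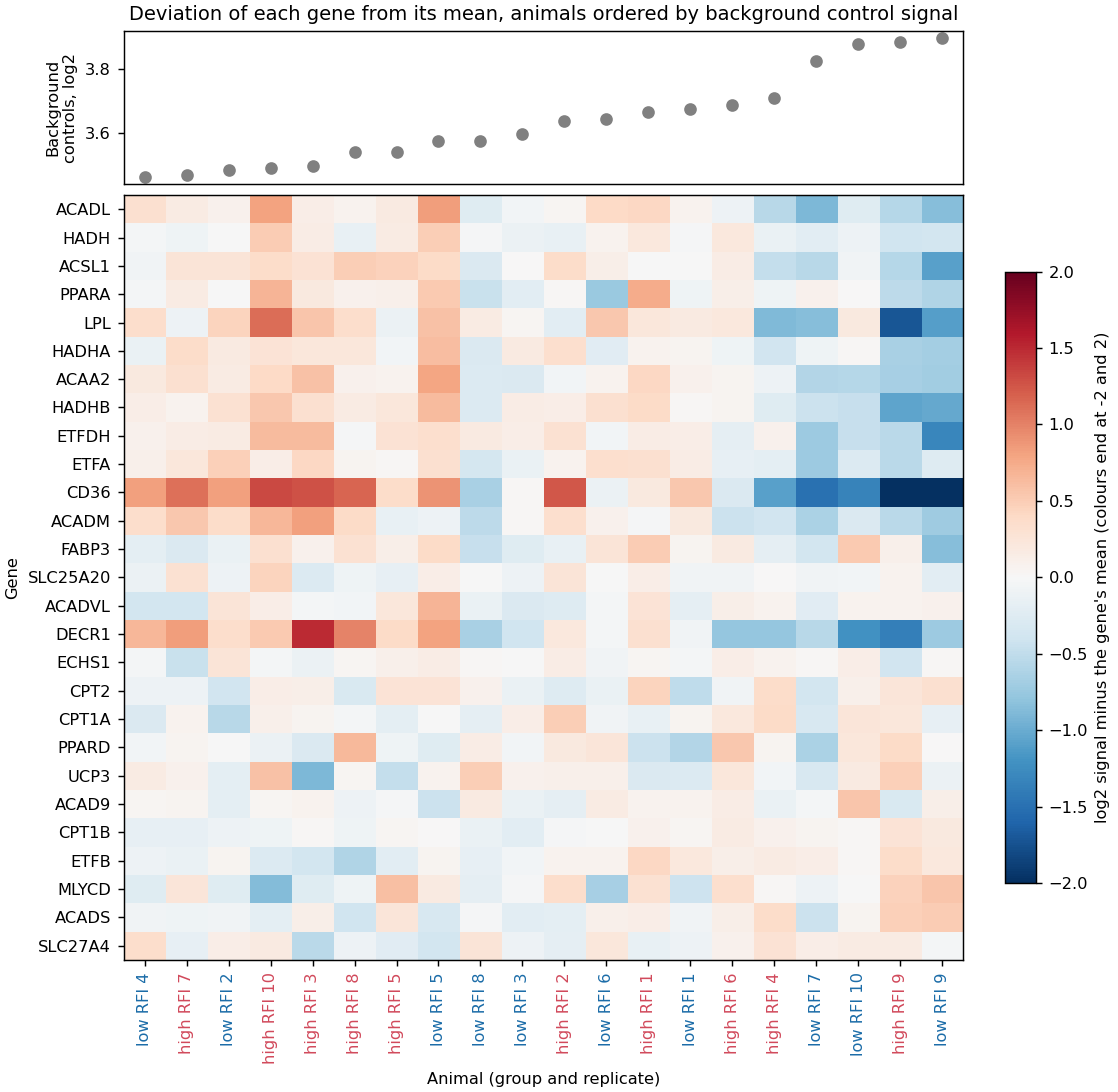
Deviation of each gene (rows) from its mean over the 20 animals, in log2 signal, with animals (columns, low RFI labels in blue and high RFI labels in red) ordered by the mean of the background control probe sets shown on top. The 4 animals on the right, with background at 3.83 to 3.90, are low for most genes in the upper rows, and animals of both groups are mixed along the order.

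Many of the genes rose and fell together across animals. Of 351 gene pairs, 95 had a correlation past an adjusted p of 0.05 in a permutation test (100000 resamples, 2-sided), 79 positive and 16 negative, and 77 of the 95 also passed with Spearman's rho. The share of called pairs among other genes was not computed, so whether 95 of 351 is more than other genes give was not tested. The highest r of the 351 was that of CD36 with HADHB (r = 0.889, rho = 0.728). HADHB with ACAA2 (r = 0.888, rho = 0.833) and ACADL with HADHB (r = 0.883, rho = 0.899) followed. CD36 with DECR1 (r = 0.882, rho = 0.875) and CD36 with ACADM (r = 0.877, rho = 0.910) came next. For these 5 pairs the adjusted permutation p of r was 0.00027, from 1e-05, the smallest the test can give. They held in low RFI alone (r = 0.912, 0.894, 0.903, 0.856 and 0.880) and in high RFI alone (r = 0.882, 0.900, 0.859, 0.890 and 0.864). Each group holds arrays of the highest background, so the values within a group do not set those arrays aside. Without the 2 animals farthest from the median of the first gene, r was 0.781, 0.866, 0.864, 0.876 and 0.876.

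The positive pairs lay mostly among 12 genes, picked out after the correlations were seen because each had at least 11 called pairs out of 26. They were CD36, LPL, ACSL1, ACADM, ACADL, HADH, HADHA, HADHB, ACAA2, DECR1, ETFA and ETFDH, so every role but the shuttle and the receptors was represented. Pairs among them had a median r of 0.775, which is no test of a set, since the genes were chosen by their called pairs in the same animals. ACADVL, ECHS1, CPT1A, PPARD and ACAD9 had no called pair. On the other side, ACADS ran against HADHA (r = -0.748, rho = -0.659, adjusted permutation p of r = 0.00144), with r = -0.738 in low RFI, -0.852 in high RFI and -0.556 without the 2 animals farthest from the ACADS median. CPT1B ran against CD36 (r = -0.649, rho = -0.556, adjusted permutation p of 0.0104 for r and 0.0503 for rho) and MLYCD against LPL (r = -0.615, rho = -0.639, adjusted permutation p of r = 0.0202). Within low and high RFI the r was -0.601 and -0.860 for CPT1B with CD36, and -0.594 and -0.635 for MLYCD with LPL. Without the 2 animals farthest from the median of CD36 and of LPL, these were -0.369 and -0.493.

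**Figure D4:**
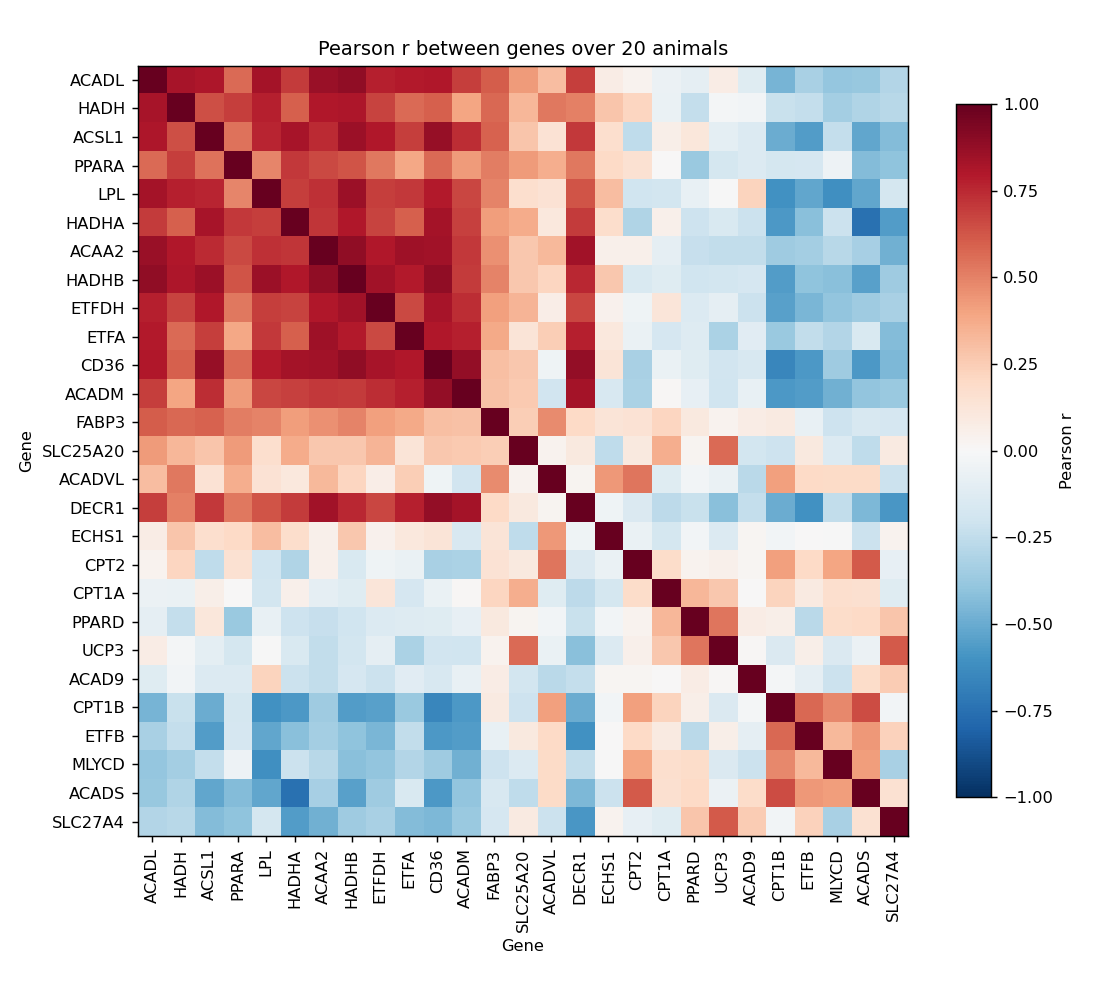
Pearson r over the 20 animals for every pair of the 27 genes, both axes listing the genes by their median r with the others, on a colour scale from -1 to 1. A red square of genes from ACADL to ACADM, joined by DECR1, faces blue cells with CPT1B, ETFB, MLYCD, ACADS and SLC27A4.

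The array background moved with this pattern. CD36 had r = -0.887 with the background control signal (rho = -0.814), ETFDH r = -0.826 (rho = -0.704) and CPT1B r = 0.743 (rho = 0.764), each with an adjusted permutation p of r of at most 0.000972. In all, 14 of the 27 genes had a correlation with the background past the threshold, 12 negative and 2 positive (CPT1B and ETFB). The share of other genes that do so was not computed. Once background and group were taken out of both genes, 30 of the 351 pairs passed, 27 of them among the former 95. HADHB with ACAA2 kept a residual r of 0.723, ACADL with HADHB 0.737 and ACADS with HADHA -0.717, each with an adjusted permutation p of at most 0.0108. CD36 with HADHB stood at a residual r of 0.650 (adjusted permutation p = 0.0269) and CD36 with ACADM at 0.632 (0.0355). CD36 with DECR1, at 0.569, no longer passed (adjusted permutation p = 0.0756), nor did CPT1B with CD36, at -0.069 (0.897), or MLYCD with LPL, at -0.478 (0.166). In the 16 arrays of lower background, r for pairs among the 12 genes ran from 0.028 to 0.903, with a median of 0.575. These animals belong to the set in which the 12 genes were picked. Of all 351 pairs, 20 passed in the 16 arrays.

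FABP3 had 3 called pairs before and 5 after background and group were taken out, while its median r over 26 pairs was 0.271 before and 0.261 after. Its pairs with ACADL, ACSL1, LPL and HADHB had residual r values of 0.801, 0.755, 0.742 and 0.721 (adjusted permutation p of at most 0.0108), against r = 0.606, 0.593, 0.493 and 0.493 before. The last 2 had not passed before (adjusted permutation p = 0.0903 and 0.0895), and without the 2 animals farthest from the FABP3 median these r values were 0.468, 0.305, 0.413 and 0.217. UCP3 stayed outside the large set and paired with SLC25A20 (r = 0.567, residual r = 0.647) and SLC27A4 (r = 0.613, residual r = 0.621). The pair with SLC25A20 did not pass with rho (adjusted permutation p = 0.122). PPARA was tied most closely to HADHA (r = 0.707, residual r = 0.682) and HADH (r = 0.695, residual r = 0.642).

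The same genes ran with other oxidative genes of the muscle. With the mean of 15 TCA cycle genes, HADHB (r = 0.924, rho = 0.908), CD36 (r = 0.924, rho = 0.856) and ACAA2 (r = 0.904, rho = 0.868) correlated most, and of the 27 genes 13 were called with a positive and 1 with a negative r. The share of other genes called with this or the other list means was not computed. With background and group removed 7 of the 27 passed. Among the 7 was SLC27A4 with a negative residual r of -0.628 (adjusted permutation p = 0.0247), which had not been called before (0.0661). ETFDH went from r = 0.860 to a residual r of 0.425 and ACADM from 0.780 to 0.242, neither past the threshold (adjusted permutation p = 0.191 and 0.492). Without the 2 animals farthest from the gene's median, HADHB, CD36 and ACAA2 had r = 0.910, 0.882 and 0.858. At the other end stood CPT1B (r = -0.539, rho = -0.427) and ETFB (r = -0.507, rho = -0.564), of which only CPT1B was called. Both changed sign with background and group removed, to a residual r of 0.373 and 0.240, neither past the threshold (adjusted permutation p = 0.270 and 0.492). The residual r for HADHB, CD36 and ACAA2 with the TCA cycle was 0.806, 0.614 and 0.727, past the adjusted threshold of the permutation test in each case. With 15 respiratory chain genes the same 3 genes led, with HADHB at r = 0.901 (rho = 0.857), ACAA2 at 0.888 (rho = 0.853) and CD36 at 0.866 (rho = 0.805), down to MLYCD at -0.426 and CPT1B at -0.442. The genes called fell from 13 to 6 with background and group removed. HADHB (residual r = 0.738) and ACAA2 (0.685) still passed, while CD36 did not (residual r = 0.536, adjusted permutation p = 0.0741). In the 16 arrays of lower background r was 0.755, 0.701 and 0.597 for HADHB, ACAA2 and CD36.

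With the mean of 11 slow fibre genes, HADHB (r = 0.768, rho = 0.755), PPARA (r = 0.742, rho = 0.668) and FABP3 (r = 0.734, rho = 0.698) correlated most, each with an adjusted permutation p of at most 0.0014 for r. Here 14 genes were called, all positive, and 5 with background and group removed. The residual r of HADHB, PPARA and FABP3 was 0.766, 0.699 and 0.781, and in the 16 arrays of lower background r was 0.744, 0.666 and 0.740. Within low RFI r was 0.769, 0.734 and 0.787, within high RFI 0.756, 0.761 and 0.661, and without the 2 animals farthest from the median 0.598, 0.772 and 0.546. SLC27A4 (r = -0.378) and ACADS (r = -0.392) lay lowest and were not called. With 11 fast fibre genes, ETFDH (r = 0.648), HADHB (r = 0.644) and CD36 (r = 0.626) lay highest and ACADS (r = -0.433) and CPT1B (r = -0.524) lowest, but none passed once background and group were removed, the residual r of the first 3 being 0.130, 0.114 and -0.100.

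LPL and CD36 are expressed in fat cells too, and muscle holds some fat cells. With the mean of 12 adipocyte markers only ACAD9 was called by r (r = 0.585, rho = 0.630, adjusted permutation p of r = 0.0179), with r = 0.782 in low RFI and 0.170 in high RFI, and it did not pass with background and group removed (residual r = 0.559, adjusted permutation p = 0.0561). SLC27A4 (r = 0.401) and UCP3 (r = 0.393) followed, of which UCP3 passed with rho alone (rho = 0.532, adjusted permutation p = 0.0453), LPL stood at 0.257 and CD36 at -0.177, and DECR1 (-0.277) and MLYCD (-0.282) lay lowest. With background and group removed LPL had the highest value of the 27 (residual r = 0.563, adjusted permutation p = 0.0564), which did not pass, and in the 16 arrays of lower background its r was 0.450. The adipocyte mean ran from 5.52 to 6.97 in low RFI and from 5.53 to 6.90 in high RFI, and of its markers LEP was below the background mean.

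**Figure D5:**
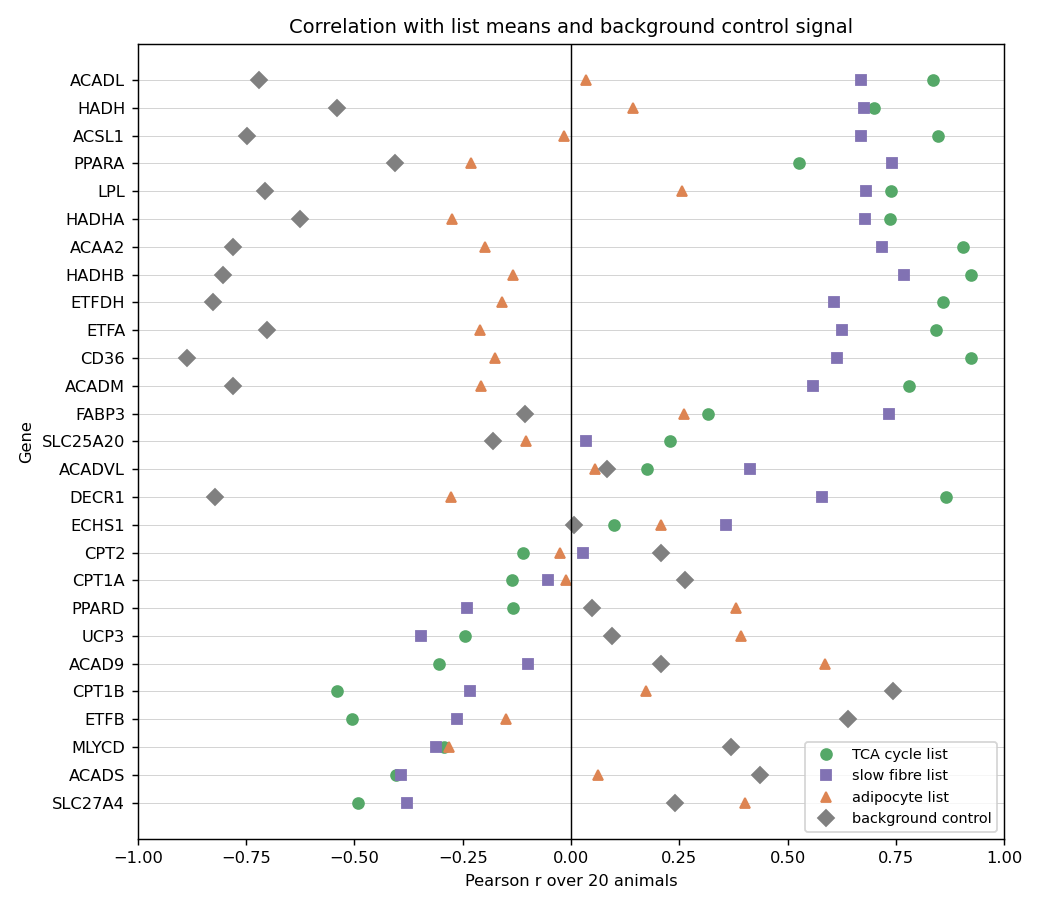
Pearson r over the 20 animals (x axis) of each of the 27 genes (y axis, ordered by median r with the others) with the mean of the TCA cycle list, the slow fibre list, the adipocyte list and the background control probe sets. For CD36 the TCA cycle value is 0.924 and the background value -0.887, while the adipocyte values are scattered on both sides of 0.

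PDK4, the kinase that spares pyruvate when fatty acids are burnt, was looked at as a partner after the data were seen. Its signal differed by -0.68 ± 0.42 between the groups, and across animals it followed CD36 (r = 0.929, rho = 0.922), ACSL1 (r = 0.898, rho = 0.765) and ACADM (r = 0.865, rho = 0.896). For CD36 the r was 0.893 in low RFI, 0.954 in high RFI, 0.896 without the 2 animals farthest from the CD36 median and 0.803 with background and group removed (adjusted permutation p = 0.00054). PPARA had r = 0.546 with PDK4 (rho = 0.567, adjusted permutation p = 0.0226), a call lost with background and group removed (residual r = 0.327, adjusted permutation p = 0.326). Over the 27 genes 15 were called with PDK4, 12 positive and 3 negative, and 6 with background and group removed. Of the 6, CPT2 (residual r = -0.587) and ACADS (-0.569) were negative, and CPT2 had not been called before (adjusted permutation p = 0.115). The share of other genes called with PDK4 was not computed.

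Beyond the 27 genes, a wider list of 55 genes of the pathway had 44 with a probe set and 42 tested, of which limma called 0, with 27 lower and 15 higher in low RFI and a median difference of -0.045. The smallest p among the lower genes belonged to PLIN5, a lipid droplet protein, whose means of 2.24 and 2.56 lay below the background mean. PDK4, the acetyl-CoA carboxylase ACACB that makes malonyl-CoA (-0.17 ± 0.12) and the coactivator PPARGC1A (-0.46 ± 0.34) followed. Among the higher genes came UCP2, a mitochondrial carrier (0.35 ± 0.15), the adipogenic receptor PPARG (0.23 ± 0.19), the peroxisomal thiolase ACAA1 (0.15 ± 0.12) and the lipase maturation factor LMF1 (0.15 ± 0.13). Adjusted p-values of these 8 genes in limma were 0.998. The TCA cycle list had 13 of 15 genes lower, the respiratory chain 13 of 15 and slow fibres 11 of 11. Fast fibres had 8 of 11 lower, endothelium 6 of 11, glycolysis 3 of 9 and adipocyte markers 3 of 12. No gene of these lists was called. Of all genes 50.8% were lower, and 55.8% of those with a mean of at least 5. Median levels in low and high RFI were 8.34 and 8.46 for the TCA cycle and 7.16 and 7.32 for the respiratory chain. For slow fibres they were 9.16 and 9.14, where the group means were 9.05 and 9.20. Macrophage markers were higher in low RFI for 7 of 7 genes, 4 of them at an unadjusted p under 0.05 where 2.48% of all probe sets were, though MSR1 and LYZ lay below the background mean. Their mean level ran from 5.10 to 5.87 in low RFI and from 4.97 to 5.42 in high RFI. Fibroblast markers were higher for 7 of 7, at 8.61 to 9.03 and 8.35 to 9.08. The part of these cells in the differences above was not tested.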

How the data were processed

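The authors deposited log2 signals per probe set for the 20 arrays; the log2 scale was read from the values. The submitters' processing notes name GCOS 1.1.1, while summary, background correction and normalization are not given in the sources used here. Of 47845 probe sets, 123 controls were left out, and those with a mean above the 30th percentile (1.75) were tested (33405). Symbols came from the platform annotation: 26426 probe sets had 1 symbol, 0 several and 21419 none here, and 446 outdated symbols were updated through RefSeq synonyms. Each array was taken as 1 animal, since the design text gives the number of pigs. Replicate numbers only name animals. Whether animals shared a litter is not stated.

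Groups were compared with limma 3.58.1 (lmFit, eBayes, 2-sided) in R 4.3.3, adjusted over all tested probe sets. Correlations used permutations, adjusted over 351 pairs, over 162 combinations of a gene with a list mean or the background, and over 27 for PDK4. Residual correlations came from fits on background and group. Both scripts were tested on simulated data. Figures were drawn with matplotlib 3.10.9. The genes and lists were chosen with earlier results of these data known. Described with full values were the 10 genes of smallest p and the 5 of largest SD, with the other genes in brief. A promoter motif search was planned and not run, and genomic positions and sequences were not analysed here.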

Additional observations from a re-analysis of the deposited data

Results flagged for a closer look

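In each group of 10 animals, the highest and the lowest value of every gene were compared with their nearest neighbour, and 2 of 54 combinations of gene and group had an animal farther away than Dixon's 95% critical value allows. Chance alone flags about 1 in 20 groups. HADH read 9.07 in low RFI replicate 5, and the animal below it 8.65. HADHB read 6.24 in high RFI replicate 9, and the animal above it 7.05. That array is one of the 4 with the highest background control signal, and the part of background in this value was not tested.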

How the results depend on the processing

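None of the 27 genes was called in any of 28 other fits (smallest limma adjusted p 0.791), nor by the rank test, and 17 of the 27 kept their sign in every fit. Over all probe sets, 1 was called without the 4 arrays of highest background, and 0 to 1 when 1 array was left out. The count of lower genes ran from 20 to 22 when 1 array was left out, was 17 with the background covariate and 18 of 27 with the mean of all probe sets of a gene. Signs reversed with the background covariate for ACADL (0.0011), HADHA (0.00066), HADHB (0.0070) and ETFA (0.0045). Without the 4 arrays they reversed for ACADL (0.074), ACAD9 (-0.040), HADHB (0.0034) and ETFA (0.025). With the mean of all probe sets they reversed for CPT1B (0.0020), ACADVL (0.052) and HADH (0.080). Leaving out 1 array gave ranges of -0.11 to 0.0056 for ACADVL, -0.058 to 0.11 for UCP3, -0.14 to 0.0022 for ETFA, -0.15 to 0.00044 for HADHA and -0.072 to 0.24 for LPL. The cause was not tested. Of the 351 gene pairs, 95 were called as deposited, 84 with arrays centred on their median, 30 on residuals from background and group, and 20 in the 16 arrays of lower background, where fewer animals were used. The 1 probe set called when 1 array was left out came without high RFI replicate 9. The lowest values of CD36 and DECR1 lie at the background signal, which limits what can be read from them.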
